A study of Arabidopsis thaliana with 6 samples.

Results

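The 42 nuclear genes described here encode the proteins that catch light in the thylakoid membrane of the chloroplast and nuclear-encoded subunits of both photosystems. They were chosen by locus identifier and fall into 4 classes. There are 14 LHCB genes (LHCB1 to LHCB6, the antenna of photosystem II), 6 LHCA genes (LHCA1 to LHCA6, the antenna of photosystem I), 12 PSA genes (photosystem I subunits) and 10 PSB genes (photosystem II subunits). Of the 42, 41 had a row in the deposited table of 21693 genes, 40 passed the filter on low counts and were tested, LHB1B2 was at 0 in every library, and PSBP1 had no row. RNA-seq libraries from shoots of 8-day-old Arabidopsis thaliana seedlings gave their transcript levels, with 3 libraries from wild-type plants (WT) and 3 from phod1 mutants. Both genotypes grew at 23 °C on 1/2 MS medium with 1.0% sucrose and 1.1% agar, in days of 16 h light and 8 h dark. The labels name no ecotype, no other allele and no transgene, do not say which gene phod1 affects, and do not say whether the libraries of a genotype came from separate cultures, so p-values measure the spread between these libraries, which may be technical.

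Photosystem II draws electrons from water and photosystem I passes them on to ferredoxin, and each is fed by an antenna of chlorophyll-binding proteins of the LHC family. The antenna proteins and the peripheral subunits are encoded in the nucleus, made in the cytosol and imported into the chloroplast, whereas the reaction centre cores are encoded in the chloroplast. In leaves, nuclear photosynthesis genes are known to be switched on by light and by the GOLDEN2-LIKE (GLK) transcription factors, and to be turned down by sugars and by signals from damaged plastids.

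Library totals were 33183463 to 54720319 estimated counts, where 1 sequenced fragment appears to be worth 4 units, and a floor of 3 fragments lay at 0.256 to 0.404 CPM (counts scaled to the TMM-adjusted library size), which covers counting error only. Summed levels of the leaf markers AS1, FIL and YAB3 were 129 to 160.3 CPM over WT libraries and 136 to 148 CPM over phod1 libraries, those of the stomatal markers FAMA, KAT1 and SPCH 65.2 to 82.8 and 87.6 to 107 CPM, and those of 5 root markers 0.683 to 1.06 and 0.641 to 0.927 CPM, with EXPA7 at 0 throughout. The stomatal sums did not overlap between genotypes. For FAMA, WT averaged 13.9 ± 8.12 and phod1 34.8 ± 1.84 (SD, n = 3, edgeR adjusted p = 0.0588). The 3 stomatal markers did not rise together. Their fitted log2 fold changes were 1.32 for FAMA, 0.090 for KAT1 and -0.40 for SPCH (edgeR adjusted p = 0.673 for KAT1 and 0.63 for SPCH). None of the 7 markers tested passed between genotypes, and the part of these cell types in the results on the photosystem genes was not tested. In whole shoots, fewer green cells and less RNA per cell cannot be told apart.

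Besides their products, the genes were compared by their promoters. A window from 250 bases before to 50 after each annotated gene start was searched on both strands for 3 motifs known from light-regulated plant genes and for 1 of the phosphate response. The first was the I-box (GATAAG). The second was the G-box (CACGTG), which light-signalling factors bind. The third was the hexamer CCAATC, which has been linked to targets of GLK. The fourth was P1BS, searched as GNATATNC and bound by the phosphate regulator PHR1. No 2 matches of different motifs overlapped in these windows. The I-box was found in 17 of the 42 windows (40.5%) against 14.6% of 27443 windows of protein-coding genes, the G-box in 14 (33.3%) against 7.7%, and CCAATC in 15 (35.7%) against 12.3%. P1BS was found in 1 window (2.4%), that of PSBR, against 6.3%. By class, CCAATC was in 8 of 14 LHCB and 1 of 12 PSA windows, the I-box in 8 of 12 PSA and 4 of 14 LHCB windows, and the G-box in 6 of 10 PSB and 3 of 14 LHCB windows. These matches are descriptions and not tested sites.

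**Figure D1:**
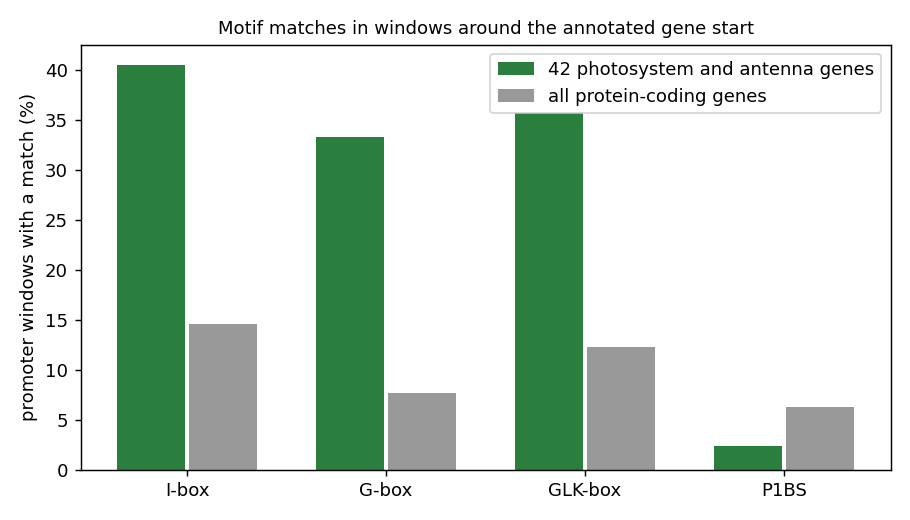
Percent of promoter windows with at least 1 match to each motif (y axis) for the 42 photosystem and light-harvesting genes (green) and all protein-coding genes (grey). The green bars of the I-box, G-box and CCAATC (labelled GLK-box) reach 40.5%, 33.3% and 35.7%, and the P1BS bar 2.4%.

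Windows of 4 genes are printed from RefSeq's TAIR10.1 genome, with coordinates of that build. The deposited tables hold no coordinates, and the submitters' processing notes name TAIR10. LHCB1.3 (chr1:10477635-10477934 on the plus strand) and LHB1B1 (chr2:14524357-14524656 on the plus strand) are shown because they encode nearly the same antenna protein and fell by very different amounts. LHCA4 (chr3:17494984-17495283 on the minus strand) and PSBQ2 (chr4:2673194-2673493 on the minus strand) are shown as 2 of the 4 genes that hold all 3 light-related motifs, the others being LHCB4.1 and PSBQ1. Each is written 5′ to 3′ on the gene's strand with matches to the I-box, G-box and CCAATC, or their reverse complements, in capitals. The window of LHB1B1 holds none. Those of LHCB1.1 and LHCB1.2, not printed, hold none either, and these genes had log2 fold changes of only -0.66 and -0.64. Whether the motifs bear on the falls was not tested.
LHCB1.3 (AT1G29930): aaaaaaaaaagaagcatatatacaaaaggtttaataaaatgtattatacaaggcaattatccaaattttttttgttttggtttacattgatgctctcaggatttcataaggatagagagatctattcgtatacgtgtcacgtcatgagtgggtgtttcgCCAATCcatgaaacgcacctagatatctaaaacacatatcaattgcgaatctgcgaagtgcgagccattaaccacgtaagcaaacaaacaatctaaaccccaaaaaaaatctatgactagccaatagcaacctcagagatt
LHB1B1 (AT2G34430): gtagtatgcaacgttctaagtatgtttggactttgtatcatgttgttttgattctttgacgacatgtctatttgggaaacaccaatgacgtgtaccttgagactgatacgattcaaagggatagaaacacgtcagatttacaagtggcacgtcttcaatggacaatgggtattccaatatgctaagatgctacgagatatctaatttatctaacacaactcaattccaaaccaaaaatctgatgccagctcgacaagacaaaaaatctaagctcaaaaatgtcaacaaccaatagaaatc
LHCA4 (AT3G47470): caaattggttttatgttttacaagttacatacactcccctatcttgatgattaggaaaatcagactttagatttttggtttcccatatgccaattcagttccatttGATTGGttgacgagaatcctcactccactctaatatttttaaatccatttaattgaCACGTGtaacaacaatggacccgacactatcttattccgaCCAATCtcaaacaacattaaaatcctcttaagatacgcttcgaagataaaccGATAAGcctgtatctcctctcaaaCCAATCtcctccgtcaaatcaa
PSBQ2 (AT4G05180): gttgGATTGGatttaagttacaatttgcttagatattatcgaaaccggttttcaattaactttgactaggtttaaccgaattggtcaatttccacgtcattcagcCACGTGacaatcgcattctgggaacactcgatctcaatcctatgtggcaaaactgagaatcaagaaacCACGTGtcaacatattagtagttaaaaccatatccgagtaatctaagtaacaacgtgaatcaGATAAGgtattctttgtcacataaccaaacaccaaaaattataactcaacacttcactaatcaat

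Photosystem and antenna transcripts were lower in phod1 in all 4 classes. In edgeR's quasi-likelihood fit, with Benjamini-Hochberg adjusted p (over the whole table) under 0.05 as the call, 28 of the 40 tested genes fell, none rose and 12 did not pass. Over all 10803 genes tested, 13.0% fell and 14.6% rose. Those are 1407 lower and 1581 higher genes, a split that moved to 618 and 3544 with libraries scaled by total counts alone, where 26 of the photosystem and antenna genes fell. Those that fell were 10 of 13 LHCB, 4 of 6 LHCA, 8 of 12 PSA and 6 of 9 PSB genes. The median log2 fold change was -0.96 over the 40 genes and 0.014 over all genes tested, and by class it was -0.97 for LHCB, -0.94 for LHCA, -1.03 for PSA and -0.82 for PSB. All 40 fitted changes were negative, except that LHCB4.1, LHCB4.3 and PSBS turned positive when libraries were scaled by total counts alone, a scaling that moves the median of all genes to 0.39. In 32 of the 40 genes every WT library lay above every phod1 library in CPM, against 22.9% of all genes tested. The authors' deposited table holds 3902 genes with an adjusted p under 0.05. It lists 31 of the photosystem and antenna genes, all lower in phod1, among them PSAE2, PSAN and PSBO1, which did not pass here. Its values for these genes nearly equal those of DESeq2's Wald test on the same libraries, so it is not a separate comparison. That test called 1914 genes lower and 1991 higher of 13806 tested. Counts may be shared with an overlapping annotated gene in 16 of the 41 genes with a row, namely LHCB1.3, LHB1B2, LHCB2.3, LHCB3, LHCB4.2, LHCB6, LHCA4, LHCA5, PSAD2, PSAE1, PSAE2, PSAG, PSAH1, PSAH2, PSAN and PSBR.

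**Figure D2:**
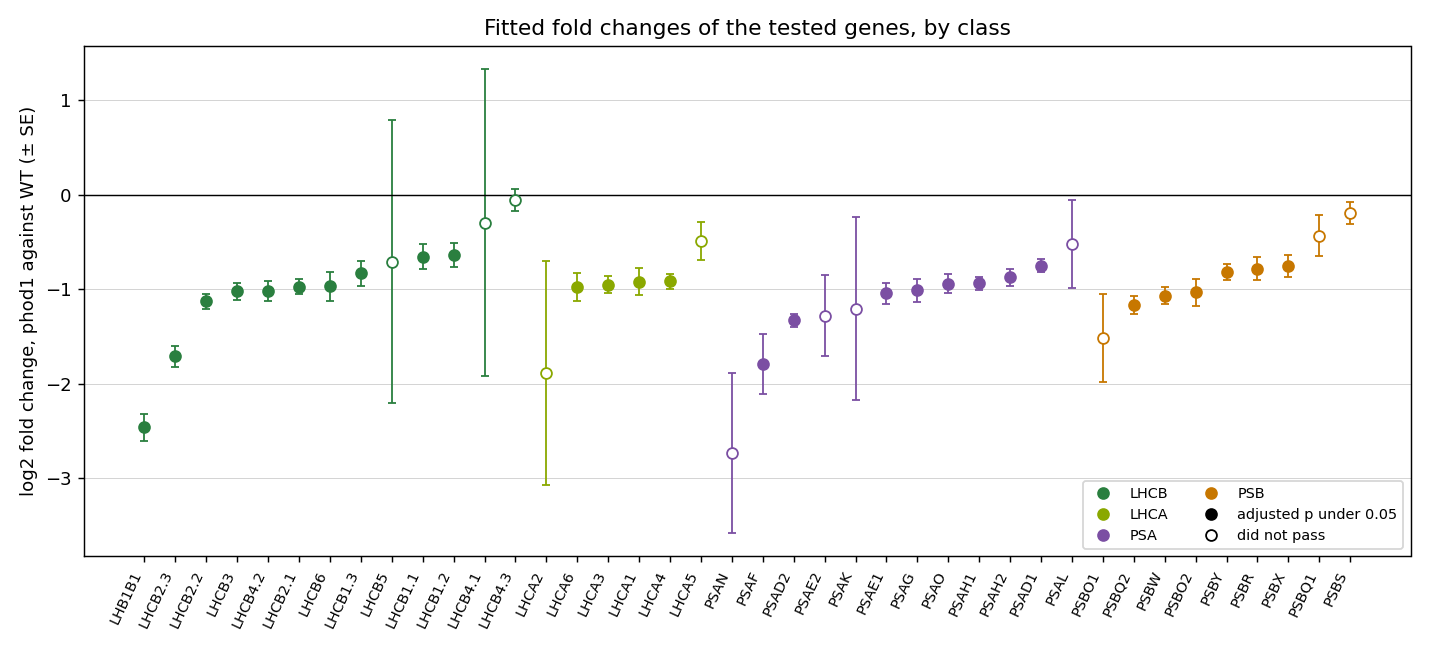
Fitted log2 fold change of phod1 against WT with its SE (y axis) for the 40 tested genes, ordered within the LHCB, LHCA, PSA and PSB classes. Filled points are the 28 genes that passed the test and open points the 12 that did not, and points run from -2.74 for PSAN to -0.056 for LHCB4.3.

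Summed over each class, LHCB transcripts made up most of the total in both genotypes. The 41 genes together took 26.9% to 29.9% of all counts in WT and 18.3% to 20.1% in phod1. LHCB sums were 212821, 212497 and 172180 CPM in WT 1 to 3 and 108914, 98693 and 115134 CPM in phod1 1 to 3. The means were 1.85 times as high in WT for LHCB, 2.08 times for LHCA, 2.32 times for PSA and 2.01 times for PSB. The sums of all 4 classes did not overlap between genotypes. Within the total, the PSA share was 14.9% to 16.5% in WT and 11.9% to 14.2% in phod1, and the LHCB share 58.1% to 62.2% in WT and 63.1% to 65.4% in phod1. In 4 genes, LHCB4.1, LHCB5, LHCA2 and PSAK, 1 library lay at least 8-fold from both others of its genotype. Leaving these out moved the phod1 level from 0.540 to 0.524 of the WT level for LHCB, from 0.481 to 0.525 for LHCA, and left 0.431 for PSA. Without these genes the LHCB shares overlapped between genotypes, with WT 1 above phod1 2, while the PSA shares did not. These sums are descriptions with no test.

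**Figure D3:**
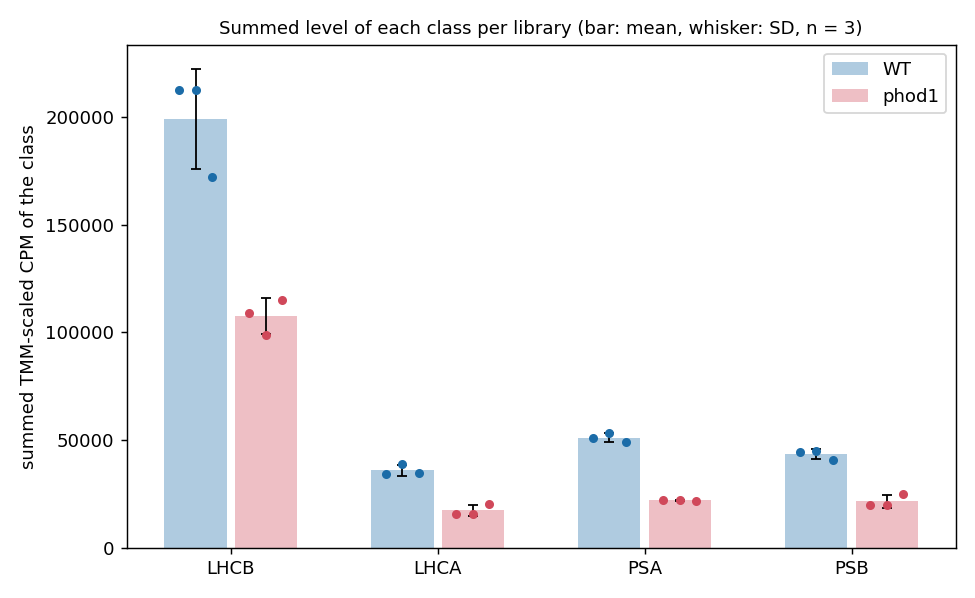
Summed TMM-scaled CPM (y axis) of each class, with bars for the mean of 3 libraries, whiskers for the SD and points for libraries, WT in blue and phod1 in red. The lowest WT point of each class lies above its highest phod1 point, and for LHCB these are 172180 and 115134 CPM.

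The trimeric antenna of photosystem II, LHCII, is built from LHCB1, LHCB2 and LHCB3 proteins. Per kilobase of coding sequence, LHCB1.3 (AT1G29930) had the highest level of the 42 genes, 76973 CPM per kb in WT and 43239 CPM per kb in phod1. It stood at 67918, 66125 and 51615 CPM in WT 1 to 3 and at 34925, 31989 and 37379 CPM in phod1 1 to 3, so the genotypes did not overlap (log2 fold change -0.83, SE 0.133, adjusted p = 0.00761 by edgeR). Its neighbours in the same cluster on chromosome 1, LHCB1.1 (AT1G29920) and LHCB1.2 (AT1G29910), had log2 fold changes of -0.66 and -0.64 (adjusted p = 0.0154 and 0.0159), the smallest falls among the genes that passed. Leave-one-out fits took these 2 genes to adjusted p of at most 0.0548 and 0.0559, losing the call without WT 2, phod1 1 or phod1 2.

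The LHCB1 gene of the other cluster fell far more. LHB1B1 (AT2G34430, on chromosome 2), also called LHCB1.4, had 16780, 15592 and 12362 CPM in WT 1 to 3 and 2753, 2475 and 2873 CPM in phod1 1 to 3. The lowest WT library was over 4 times the highest phod1 library, and the fitted fall was 5.52-fold (log2 fold change -2.47, SE 0.141, adjusted p = 0.000287). This was the strongest fall among the genes that passed. The second gene of this cluster, LHB1B2 (AT2G34420), was at 0 in all 6 libraries, while RWA3 (AT2G34410), a cell wall acetylation gene that overlaps it on the opposite strand, ranged from 41047 to 50655 CPM over the WT libraries and from 19628 to 22984 CPM over those of phod1 (log2 fold change -1.10, SE 0.111, adjusted p = 0.00163). Whether the counts on RWA3 are those of LHB1B2 was not tested, and LHB1B2 has no value of its own.

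The LHCB2 and LHCB3 genes fell between these extremes. LHCB2.1 (AT2G05100) and LHCB2.2 (AT2G05070) fell with log2 fold changes of -0.97 and -1.13 (adjusted p = 0.000767 and 0.000505), and LHCB3 (AT5G54270) with -1.02 (adjusted p = 0.00111). LHCB2.3 (AT3G27690) was at 5287, 5053 and 4193 CPM in WT 1 to 3 and at 1461, 1417 and 1555 CPM in phod1 1 to 3. Its groups were well apart, with a 3.28-fold fall (log2 fold change -1.71, SE 0.108, adjusted p = 0.000382). Stretches of 100 bases that are identical in another gene of the set were found in 7 genes, all of LHCB1 or LHCB2, and made up 1.5% to 12.4% of their transcripts, so the split of reads within LHCB1 and between LHCB2.1 and LHCB2.2 is less certain than their sum.

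The minor antenna proteins LHCB4, LHCB5 and LHCB6 sit singly between LHCII and the core of photosystem II. LHCB4.2 (AT3G08940) and LHCB6 (AT1G15820) fell with log2 fold changes of -1.02 and -0.97 (adjusted p = 0.00177 and 0.00784), from 7968 ± 929 to 3940 ± 187 CPM and from 11265 ± 2245 to 5750 ± 429 CPM (SD, n = 3 each). LHCB4.1 (AT5G01530) had 17.2 CPM in WT 1 beside 14668 and 14184 CPM in WT 2 and 3, and 7522 to 8039 CPM in phod1. WT 1 lay below every phod1 library and the other WT libraries above them, and the gene did not pass (adjusted p = 0.92) but fell without WT 1 (log2 fold change -0.88, adjusted p = 0.0023). Leaving out any other library gave no call (adjusted p = 0.933 to 0.981). LHCB5 (AT4G10340) was likewise at 29.6 CPM in WT 3 against 9465 and 8562 CPM in WT 1 and 2, with 4381, 2291 and 4350 CPM in phod1 1 to 3 (adjusted p = 0.777), and fell without WT 3 (log2 fold change -1.29, adjusted p = 0.0441). With any other library left out, LHCB5 did not pass (adjusted p = 0.793 to 0.944). The third LHCB4 gene, LHCB4.3 (AT2G40100), was the least abundant gene with counts, with 39.1, 33.1 and 31.3 CPM in WT 1 to 3 against 34.0, 32.2 and 33.4 CPM in phod1 1 to 3. Its libraries overlapped and it did not pass (log2 fold change -0.056, SE 0.114, adjusted p = 0.768).

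**Figure D4:**
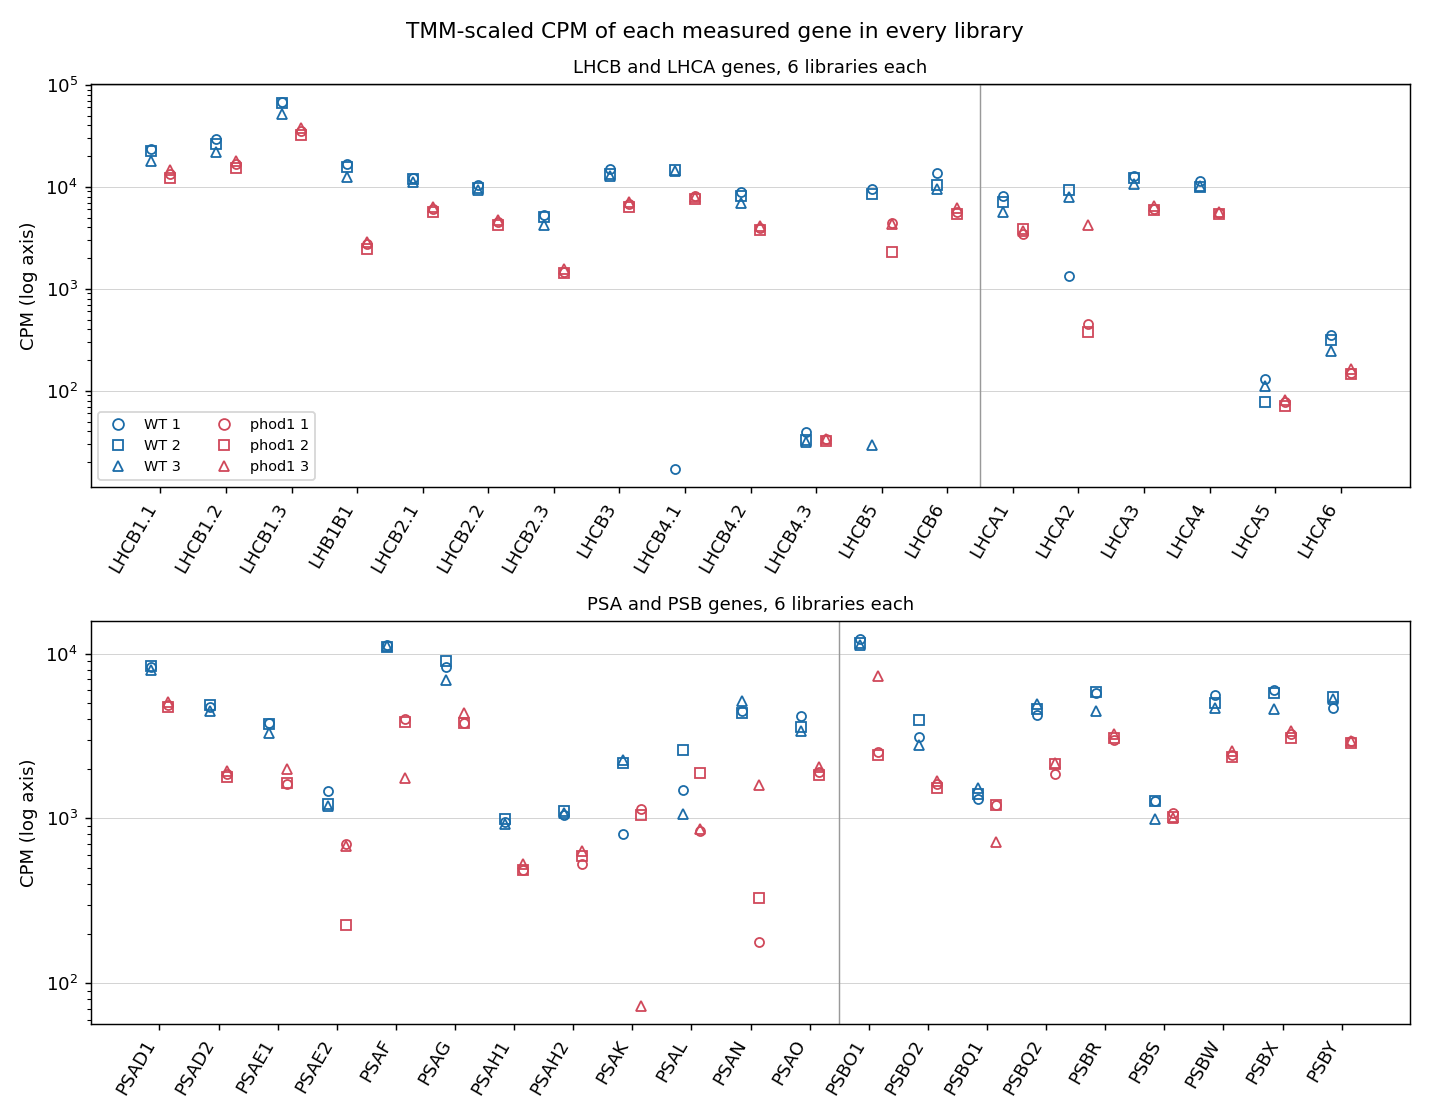
TMM-scaled CPM on a log axis for the 40 genes with counts, with WT libraries in blue and phod1 libraries in red and a symbol for each replicate number. Single libraries far from their sisters are visible, such as WT 1 for LHCB4.1 (17.2 CPM), WT 3 for LHCB5 (29.6 CPM) and phod1 3 for PSAK (72.7 CPM).

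The antenna of photosystem I is a belt of LHCA1 to LHCA4, and LHCA5 and LHCA6 are scarce relatives that join photosystem I to the NDH complex of cyclic electron flow. LHCA3 (AT1G61520), LHCA1 (AT3G54890) and LHCA4 (AT3G47470) fell by nearly the same amount, with log2 fold changes of -0.95, -0.92 and -0.92 (adjusted p = 0.00153, 0.00636 and 0.000968). LHCA4 had 11421, 9901 and 10145 CPM in WT 1 to 3 and 5541, 5445 and 5685 CPM in phod1 1 to 3, with no overlap. LHCA6 (AT1G19150), at 372 CPM per kb in WT against 13874 CPM per kb for LHCA4, fell with a log2 fold change of -0.98 (adjusted p = 0.00585). LHCA5 (AT1G45474) held 132, 77.7 and 112 CPM in the 3 WT libraries and 78.5, 70.7 and 80.4 CPM in phod1 1 to 3. WT 2 lay among the phod1 libraries, and the gene did not pass (log2 fold change -0.49, adjusted p = 0.134). It passed without WT 2 (-0.67, adjusted p = 0.0209) but not when any other library was left out (adjusted p = 0.215 to 0.296). LHCA2 (AT3G61470) varied most, with 1335, 9227 and 7946 CPM in WT 1 to 3 and 447, 377 and 4179 CPM in phod1 1 to 3. There WT 1 lay below phod1 3 and the other WT libraries above all of phod1, and the gene did not pass (log2 fold change -1.89, SE 1.19, adjusted p = 0.303; -3.90 and 0.051 without phod1 3).

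In photosystem I, PSAD and PSAE form the stromal side where ferredoxin docks. PSAD1 (AT4G02770) fell from 8352, 8468 and 8000 CPM in WT 1 to 3 to 4901, 4722 and 5117 CPM in phod1 1 to 3. Its second copy PSAD2 (AT1G03130) fell from 4743, 4859 and 4486 CPM to 1871, 1792 and 1940 CPM. Both were clear of overlap, and the log2 fold changes were -0.75 (SE 0.0658, adjusted p = 0.00101) and -1.33 (SE 0.0683, adjusted p = 0.000216). PSAE1 (AT4G28750) fell as well (log2 fold change -1.04, adjusted p = 0.00209). PSAE2 (AT2G20260) had 1474, 1227 and 1183 CPM in WT 1 to 3 and 696, 227 and 677 CPM in phod1 1 to 3. All WT libraries lay above phod1, while phod1 2 lay below its sister libraries. It did not pass (log2 fold change -1.28, SE 0.428, adjusted p = 0.0775), but passed without phod1 2 (-0.92, adjusted p = 0.0122).

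PSAF and PSAN lie on the lumen side, where plastocyanin delivers electrons. PSAF (AT1G31330) stood at 11276, 10981 and 11186 CPM in WT 1 to 3 and at 3990, 3866 and 1767 CPM in phod1 1 to 3, the strongest fall of the PSA genes that passed (3.48-fold, log2 fold change -1.80, SE 0.318, adjusted p = 0.0104). PSAN (AT5G64040) had the most negative fitted change of all 40 genes without passing (log2 fold change -2.74, SE 0.847, adjusted p = 0.0625). Its levels were 4500, 4356 and 5135 CPM in WT 1 to 3 and 177, 330 and 1592 CPM in phod1 1 to 3, so that WT lay above phod1 throughout while phod1 3 was well above its sister libraries. Without phod1 3 the gene passed (log2 fold change -4.20, adjusted p = 0.00334), but not when any other library was left out (adjusted p = 0.090 to 0.153).

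Of 6 genes for subunits at the antenna side of photosystem I, 4 fell and 2 did not pass. PSAG (AT1G55670), which helps hold the LHCA belt, fell with a log2 fold change of -1.01 (adjusted p = 0.00299), and PSAH1, PSAH2 and PSAO, which lie where LHCII can attach, had log2 fold changes of -0.94, -0.88 and -0.94 (adjusted p = 0.000579, 0.00157 and 0.00208). PSAK (AT1G30380) had 806, 2185 and 2266 CPM in WT 1 to 3 and 1147, 1056 and 72.7 CPM in phod1 1 to 3. PSAL (AT4G12800) had 1495, 2604 and 1056 CPM in WT 1 to 3 and 840, 1892 and 858 CPM in phod1 1 to 3. The libraries of both overlapped between genotypes, and neither passed (adjusted p = 0.42 for PSAK and 0.468 for PSAL).

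In photosystem II, PSBO, PSBP and PSBQ shield the manganese cluster that splits water. PSBO1 (AT5G66570), the main PSBO gene in WT, stood at 12276, 11682 and 11325 CPM in WT 1 to 3 and at 2545, 2440 and 7334 CPM in phod1 1 to 3. All WT libraries were above phod1, phod1 3 lay well above its sister libraries, and the gene did not pass (log2 fold change -1.52, SE 0.462, adjusted p = 0.0599), though it did without phod1 3 (-2.24, adjusted p = 0.000999). With any other library left out, PSBO1 did not pass (adjusted p = 0.117 to 0.142). PSBO2 (AT3G50820) fell (log2 fold change -1.03, adjusted p = 0.0047). PSBQ2 (AT4G05180) had 4260, 4612 and 4941 CPM in WT 1 to 3 and 1853, 2147 and 2155 CPM in phod1 1 to 3, the strongest fall of the PSB genes that passed (log2 fold change -1.17, SE 0.0966, adjusted p = 0.00083). PSBQ1 (AT4G21280), with 1304 to 1525 CPM across WT and 722 to 1213 CPM across phod1, did not pass (log2 fold change -0.43, adjusted p = 0.198). For PSBP1 (AT1G06680), the adjoining helicase gene NIH, whose annotated end overlaps it, held 9283, 3424 and 88.5 CPM in WT 1 to 3 and between 4333 and 4746 CPM in every phod1 library, and whether these are counts of PSBP1 was not tested.

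The small subunits PSBR, PSBW, PSBX and PSBY of photosystem II all fell, with log2 fold changes of -0.79, -1.07, -0.76 and -0.82 (adjusted p = 0.00695, 0.000903, 0.00763 and 0.00146). PSBS (AT1G44575), the LHC relative that triggers the safe release of excess light energy as heat, held 1278, 1279 and 991 CPM in WT 1 to 3 and 1073, 1025 and 1009 CPM in phod1 1 to 3. WT 3 lay below all phod1 libraries, and the gene did not pass (log2 fold change -0.19, SE 0.116, adjusted p = 0.284) except without WT 3 (-0.30, adjusted p = 0.0265).

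Where a protein has several genes, the share of 1 gene per family was compared between genotypes. The genes followed in LHCB1 and LHCB2, LHB1B1 and LHCB2.3, were those with the strongest falls of their families. In 4 of 8 families the share of 1 gene in the family's counts did not overlap between genotypes. LHB1B1 made up 12.2%, 11.9% and 11.9% of LHCB1 counts in WT 1 to 3 and 4.05%, 3.98% and 3.95% in phod1 1 to 3. LHCB1 counts here are those of LHCB1.1, LHCB1.2, LHCB1.3 and LHB1B1. LHB1B2, at 0, is left out, and any counts of it held by RWA3 would lower these shares. The PSAD2 share was 36.2%, 36.5% and 35.9% in WT and 27.6%, 27.5% and 27.5% in phod1. LHCB2.3 took 16.9% to 18.9% of LHCB2 counts in WT and 12.1% to 12.6% in phod1. The share of LHCB2.2 overlapped, with 36.3% to 37.9% in WT and 37.4% to 37.6% in phod1. In these 3 families the least abundant gene measured lost share. In PSBQ the more abundant PSBQ2 did, from 76.4% to 76.6% in WT to 60.4%, 64.0% and 74.9% in phod1. The exact two-sided permutation test over 6 libraries gave p = 0.1 for each of these 4, the smallest that 3 against 3 allow, and 0.2 with Benjamini-Hochberg adjustment over the 8 families.

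The other families gave no such separation. PSAH2 took 52.3% to 53.8% of PSAH counts in WT and 52.0% to 55.04% in phod1 (exact permutation p = 0.4). The shares of LHCB4.2, PSAE2 and PSBO2 each had 1 library far from its sisters (exact permutation p = 0.3, 0.8 and 0.4). LHCB4.2 was at 99.4% of LHCB4 in WT 1 against 32.9% to 35.4% elsewhere, and PSAE2 at 12.1% of PSAE in phod1 2 against 24.6% to 30.01%. PSBO2 was at 18.7% of PSBO in phod1 3, 38.8% and 38.5% in phod1 1 and 2, and 19.7% to 25.3% in WT. Leaving out WT 1 took the LHCB4.2 difference from -22.5 to -0.83 percentage points. Leaving out phod1 3 raised that of PSBO2 from 10.2 to 16.8. Leaving out phod1 2 turned the difference of the PSAE2 share from -3.84 to 1.35 percentage points.

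**Figure D5:**
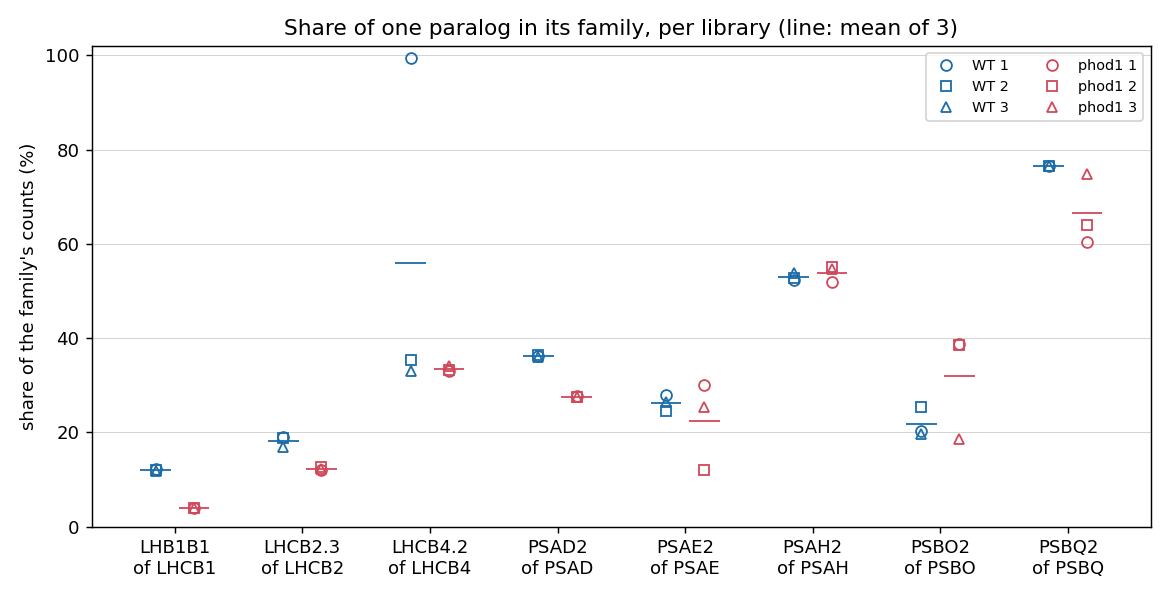
Share of 1 gene in the counts of its family in percent (y axis) for 8 families, with symbols for libraries (WT blue, phod1 red) and lines for means. LHB1B1 lies near 12.0% in WT and 3.99% in phod1, and PSAD2 near 36.2% and 27.5%, while the shares of LHCB4.2, PSAE2 and PSBO2 are spread by single libraries. LHCB1 is counted without LHB1B2.

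Genes that work with the photosystems were read from lists set up for comparison, beside 13.0% lower and 14.6% higher over all genes tested. Of 9 tested genes of electron transport, 6 fell and none rose, among them the ferredoxin gene FD2 (AT1G60950; 4816 ± 332 to 1690 ± 90.7 CPM, log2 fold change -1.51, adjusted p = 0.000255), the ferredoxin reductase gene LFNR2 (log2 -1.22, adjusted p = 0.000397) and the plastocyanin gene PETE2 (log2 -0.87, adjusted p = 0.00102). Both tested ATP synthase genes, ATPD and ATPC1, fell with log2 fold changes of -0.999 and -0.80 (adjusted p = 0.000575 and 0.000784). Of 5 other photosystem genes, PSB27 and PSBTN had log2 fold changes of -1.17 and -1.20 (adjusted p = 0.000306 and 0.00779) and 3 did not pass. Neither of 2 tested Rubisco small subunit genes passed.

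Genes that build and regulate the photosystems were read in the same way. Of 12 genes of targeting and assembly, 5 fell and 7 did not pass, and the median log2 fold change was -0.47. Over all genes tested, 13.0% fell. Those with the smallest p were CPFTSY, LTD and CPSRP54, which guide LHC proteins to the thylakoid and had log2 fold changes of -0.58, -0.73 and -0.38 (adjusted p = 0.00461, 0.00643 and 0.0181). Of 12 regulators, 6 fell and 6 did not pass. SIG5, a sigma factor of chloroplast transcription, fell from 82.0 ± 8.41 to 28.0 ± 1.67 CPM (log2 fold change -1.55, adjusted p = 0.00054), and GUN4, which promotes chlorophyll synthesis, and STN7, the kinase of state transitions, with log2 fold changes of -0.87 and -0.67 (adjusted p = 0.000968 and 0.00296). The GLK genes, chosen for mention after their values were seen, did not pass, with WT and phod1 levels of 332 ± 56.3 and 352 ± 44.6 CPM for GLK1 (adjusted p = 0.755) and 182 ± 8.19 and 184 ± 56.1 CPM for GLK2 (adjusted p = 0.977).

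Among 9 relatives of the LHC family that do not belong to an antenna, 1 rose, 1 fell and 7 did not pass, against 14.6% higher and 13.0% lower of all genes tested, so that the counts are near the background. ELIP1 (AT3G22840), an early light-induced protein of photoprotection, rose from 2.46, 3.12 and 4.57 CPM in WT 1 to 3 to 18.8, 18.0 and 18.4 CPM in phod1 1 to 3 (log2 fold change 2.44, SE 0.247, adjusted p = 0.00162). OHP2, needed to assemble photosystem II, fell (log2 fold change -1.003, adjusted p = 0.00156). No gene of the other lists in this comparison rose.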

How the data were processed

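RNA-seq libraries of 3 WT and 3 phod1 shoot samples were grouped by the titles in the labels. Estimated counts (expected counts) per gene, whole numbers without normalization, come from a table that the authors deposited. Per the submitters' processing notes, CASAVA 1.4, STAR, StringTie and TAIR10 were used, without role or order, and the sources used here do not give the counting command, annotation or strand setting. Read counts had been planned for. The estimated counts were put through that test unchanged, and rounding altered 0 values. Low values were in excess at multiples of 4 (4 was seen 1703 times, 3 and 5 562 and 832 times), and 4 units were taken as 1 fragment. The filter and the fit took each unit as a read, so counting error of scarce genes may be larger than assumed. The authors also deposited their own comparison, per the file headers with a log2 fold change and adjusted p-values, and its tool is not given. Its log2 fold changes for the photosystem and antenna genes it lists nearly equal those of DESeq2's Wald test here, such as -2.7496 for PSAN in both. It is therefore not a comparison separate from that alternative.

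Genes were filtered by filterByExpr (minimum count 10, minimum total 15), given TMM factors and compared between genotypes by a two-sided glmQLFTest after glmQLFit in edgeR 4.0.16 (R 4.3.3). P-values were adjusted by Benjamini-Hochberg over 10803 genes. CPM uses the TMM-scaled totals of the filtered genes, SDs are over 3 libraries, and the SE is the log2 fold change over the root of F. A library stood apart where it lay at least 8-fold from both its sisters. Alternatives were other scalings, DESeq2 1.42.0, no filter, a replicate block, leaving out each library, and members summed with their nearest listed neighbours. Leaving out the genes in which a library stood apart was added after seeing the data. Fits were tested on simulated counts, but the outcome is not given here and no result rests on it. No 2 libraries were identical. Same-numbered libraries of the genotypes did not deviate together, and nothing in the labels pairs them.

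The genes, classes and lists were chosen with earlier results of these data known. All 42 genes could be named, values per library were given for the extremes of each class, for genes with a library apart or at 0, and for the families, and up to 3 called genes per list by smallest p. LHCA4 and PSAF were also given per library after their values were seen. Of the genes with a row, 16 overlap another annotated gene in TAIR10.1, 15 of them on the opposite strand, and without a known strand setting their reads cannot be told apart. Promoter windows and coding lengths come from TAIR10.1.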

Additional observations from a re-analysis of the deposited data

How the results depend on the processing

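The count of photosystem and antenna genes that fell, 28, was 25 to 31 under every alternative run, and none rose. It was 26 with total counts alone, 31 with DESeq2's Wald test, 25 with the replicate block, and 26 to 30 when a library was left out. Leaving out the 4 genes in which a library stood apart says nothing on the count, since none of them had passed. By class, leaving out a library gave 8 to 11 LHCB, 4 to 5 LHCA, 8 to 9 PSA and 6 to 7 PSB genes. Over all genes, 2988 passed, 2128 to 2531 without a library and 1500 with the replicate block. The block rests on numbers that the labels do not say pair the samples. Correlations of the deviations of same-numbered libraries were -0.0059, -0.051 and 0.0074, and under the block LHCB1.1, LHCB1.2 and LHCB1.3 no longer passed (adjusted p = 0.0776, 0.0706 and 0.0522). With total counts alone, LHCB1.1 and LHCB1.2 did not pass (adjusted p = 0.0811 and 0.0978), and the medians of all genes and of these genes were 0.39 and -0.58.

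Positive log2 fold changes were fitted for 4 genes, none of which passed as higher. LHCB4.1 went to 0.074 with total counts alone, 0.67 with the replicate block, and -0.88 to 0.15 when a library was left out (positive without WT 2 and, at 0.092, without WT 3). LHCB4.3 went to 0.32 with total counts alone and -0.12 to 0.046 when a library was left out (positive without WT 1), LHCB5 to 0.077 with the block and PSBS to 0.19 with total counts alone. PSAE2, PSAN and PSBO1 passed with DESeq2 (adjusted p = 0.0138, 0.00122 and 0.00483), and PSAN also when summed with its neighbours (adjusted p = 0.0467). That sum gave 30 lower genes, the other added one being LHB1B2, whose sum is that with RWA3 (log2 fold change -1.10, adjusted p = 0.00163). The cause was not tested. Upper quartile scaling, DESeq2's size factors and no filter changed no call among the 40 genes.

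Differences of shares in percentage points, over fits that each left out a library, were -8.07 to -7.92 for LHB1B1, -6.56 to -5.58 for LHCB2.3, -8.80 to -8.53 for PSAD2, -14.3 to -7.06 for PSBQ2, -34.02 to -0.83 for LHCB4.2, -7.61 to 1.35 for PSAE2, 0.39 to 1.91 for PSAH2 and 6.80 to 16.8 for PSBO2. Dividing by coding length kept every direction. With 3 libraries per genotype, a gene in which 1 library stands apart can miss the threshold at any depth.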

Other observations

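Libraries that stand far from their sisters were also seen in the comparison lists, in genes that did not pass. PSB28, a photosystem II assembly factor, had 226 and 213 CPM in phod1 1 and 2 and 0.775 CPM in phod1 3, with 290.2 to 298 CPM in WT. PGR5, of cyclic electron flow around photosystem I, had 276 and 295 CPM in WT 1 and 2 and 47.3 CPM in WT 3, and 210.2, 215 and 7.22 CPM in phod1 1 to 3. OHP1, the partner of OHP2, had 3.27 CPM in phod1 1 beside 21.3 and 29.4 CPM in phod1 2 and 3. The Rubisco gene RBCS2B had 87.4 CPM in phod1 1 and 1522 and 2436 CPM in phod1 2 and 3. RBCS1A had 18141 CPM in WT 1 and at most 0.0267 CPM in every other library, below the floor, and was not tested. These genes were chosen after their values were seen, and how the counting assigned their reads was not tested.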
